A study of Mus musculus with 2 samples.

Results

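The NF-kappaB subunit and inhibitor genes were followed in spleen neutrophils of the mouse. The set held 10 listed genes of the 55536 annotated genes. The subunits were Nfkb1, Nfkb2, Rel, Rela and Relb. Nfkbia, Nfkbie, Nfkbiz, Bcl3 and Tnfaip3 were listed as inhibitors. Each gene was chosen by its symbol, and each symbol had a single identifier. The cells were primary cells labelled as neutrophils, of the strain B6CASTF1/J, and as male, virgin and adult at 59 days. The strain is the F1 hybrid of C57BL/6 mothers and CAST/EiJ fathers, and no treatment is named in the labels. Total RNA (300 ng per library, reduced in ribosomal RNA, with ERCC spike-in controls) was sequenced in 2 libraries, numbered replicate 1 and replicate 2 of 1 group. The donor label is shared by both libraries while their biosample labels differ, and whether they came from separate animals is not stated, so the spread between them may be technical.

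NF-kappaB is a family of dimeric transcription factors that switch on inflammatory, survival and immune genes. In resting cells the dimers are held in the cytoplasm by I-kappaB proteins, until receptors for cytokines or microbial products activate a kinase complex that marks I-kappaB for destruction. Freed dimers enter the nucleus and bind kappaB sites, and among the genes they switch on are those of their own inhibitors, which closes a feedback loop. In neutrophils the pathway is known for driving chemokine and cytokine genes and for delaying cell death.

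The libraries held 18836093 reads in replicate 1 and 18444369 in replicate 2, as summed expected counts. All 10 neutrophil markers were present, led by S100a9 and S100a8, and their summed TPM, a level scaled per transcript length and to a fixed total per library, was 56903 and 53322. Summed levels of the other marker lists were far lower, but S100a9 (mean 23224 TPM) and S100a8 (19295 TPM) made most of the neutrophil sum. Single genes overlapped between lists. Fn1 of the monocyte and macrophage list averaged 838 TPM, below S100a9, S100a8, Ltf, Retnlg and Camp. It stood above Csf3r (471 TPM), Mpo (411 TPM), Ly6g (292 TPM), Elane (280 TPM) and Cxcr2 (158 TPM). Monocyte and macrophage markers, led by Fn1 and Ly6c2, summed to 1982 and 1769 TPM, with 8 of 9 at 1 TPM or more in both libraries. Erythroid markers, led by Hba-a1 and Hbb-bs, summed to 957 and 970 TPM (8 of 8), and those of eosinophils and basophils, led by Prss34 and Mcpt8, to 186 and 163 TPM (7 of 7). B cell markers, led by Igkc and Ighm, summed to 393 and 272 TPM (7 of 8), and those of endothelium and stroma, led by Col1a1 and Col1a2, to 44.2 and 151 TPM (3 of 6). Dendritic cell markers, led by Itgax and Cd209a, summed to 20.96 and 13.41 TPM (3 of 7). T cell markers (Il7r and Lck highest) summed to 4.03 and 2.06 TPM and NK cell markers (Klra8 and Klrd1 highest) to 1.08 and 1.00 TPM, with 0 of 8 and 0 of 6 at a TPM of 1 and Gzma at 0. In bulk RNA, fewer cells of a type and less RNA per cell cannot be told apart.

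All 10 genes were expressed in both libraries, from 7.68 TPM for Relb to 130 TPM for Nfkbiz, a 16.98-fold range of mean levels. The median member stood at 32.4 TPM in replicate 1 and 31.6 in replicate 2, whereas the median of the 10474 protein-coding genes averaging 1 TPM or more was 13.1 TPM. The 3 highest members were Nfkbiz, Nfkbia and Tnfaip3, all from the inhibitor part of the list. Below them came Nfkb1, Rela, Rel, Nfkb2, Nfkbie, Bcl3 and Relb, in that order. Between neighbours in this order, only Nfkbia and Tnfaip3 had library values that overlapped. The narrowest of the other gaps were those of Nfkbiz over Nfkbia (1.11-fold) and of Rel over Nfkb2 (1.12-fold). By the means, both of these gaps turned in the second deposited transcript table, which was estimated from the reads without the alignments. There Nfkbia averaged 142 TPM and Nfkbiz 141, and Nfkb2 averaged 25.9 and Rel 24.0. The values of Nfkbia (159 and 124 TPM) and Nfkbiz (142 and 140 TPM) overlapped there, and Nfkbiz was the higher in replicate 2. Tnfaip3 was lower in the second table, at 81.8 and 100.8 TPM (mean 91.3), and did not overlap with Nfkbia there.

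**Figure D1:**
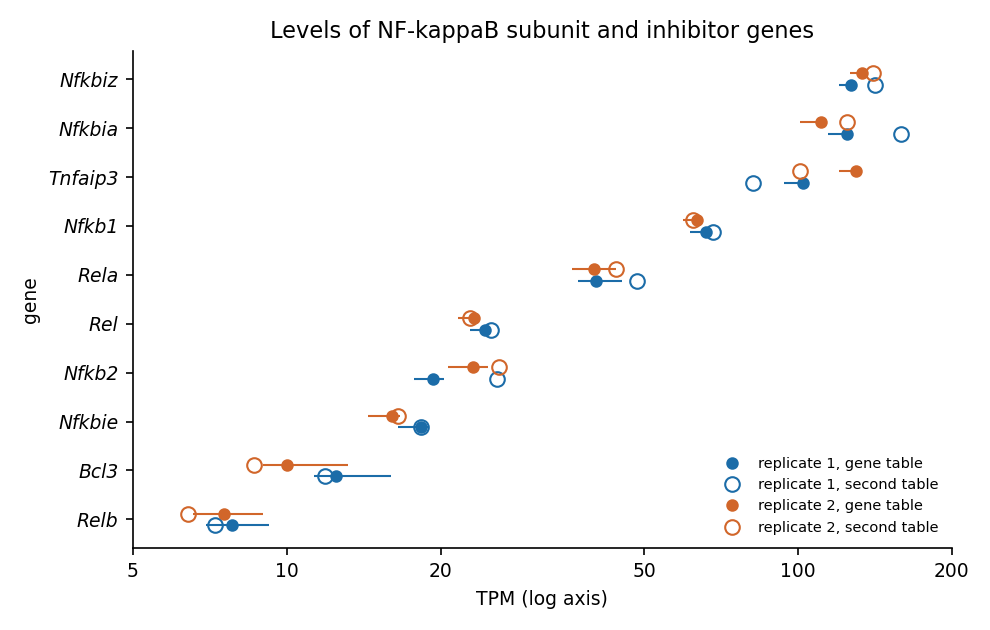
TPM of each gene on a log axis, with replicate 1 in blue and replicate 2 in orange; filled points are the deposited gene table with its deposited interval bounds as lines, and open points are the second transcript table summed per gene. Nfkbiz, Nfkbia and Tnfaip3 lie above all subunit genes, and Relb lies lowest. The deposited bounds need not enclose the point and are not its error. In both libraries the points of Nfkbiz (127 TPM in replicate 1, bounds 120 to 126) and Rel (24.45 TPM, bounds 22.81 to 24.41) lie above them.

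The promoters of the members were searched for the kappaB consensus, a motif of 10 bases that begins with 3 G, ends with 2 C and also limits which bases may stand in most places between. The search covered both strands from 250 bases before to 50 bases after each start site, in RefSeq promoters of build GRCm38.p6 (mm10). Promoters of 7 members were used (10 promoters, since Nfkb2 and Tnfaip3 had several starts). Those of Nfkb1, Relb and Nfkbiz were not used here. The consensus was matched in 8 of the 10 promoters and in 6 of the 7 genes (85.7%), Rela being the gene without a match. Of all 32851 promoters, 1480 (4.51%) held a match, and of the 8372 genes at 1 TPM or more in both libraries, 502 (6.00%) had a promoter with one. Median GC content was 65.2% in the members' promoters, 60.7% in those of genes at 1 TPM or more in both libraries and 52.7% in all promoters. A match is a stretch of letters and not a measured binding site, and no match says only that these letters were not in the window. All sequences are of the reference build, and the CAST/EiJ alleles of these hybrid cells were not searched.

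Among the subunits, Nfkb1 was the most abundant. It encodes a long precursor that is cut to the DNA-binding p50 subunit. Nfkb1 (ENSMUSG00000028163.17, chr3:135584655-135691547, minus strand, mm10) measured 66.0 TPM from 3911 reads in replicate 1 and 63.4 TPM from 3694 reads in replicate 2 (64.7 ± 1.88, SD, n = 2). That mean ranked 1179 among the 10474 coding genes, higher than 88.7% of them. Rela encodes p65, the main activating subunit and the usual partner of p50. Rela (ENSMUSG00000024927.8, chr19:5637483-5648130, plus strand) measured 40.3 TPM (1653 reads) and 39.9 TPM (1546 reads), a mean of 40.1 ± 0.262. Rel encodes c-Rel, the other classical activator in blood cells. Rel (ENSMUSG00000020275.9, chr11:23736847-23770970, minus strand) measured 24.5 TPM (3410 reads) and 23.3 TPM (3131 reads), a mean of 23.9 ± 0.841.

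The subunits of the non-canonical branch were the lower members of this class in the gene table, while in the second table Nfkb2 stood above Rel. Nfkb2 encodes the precursor of p52, and Relb encodes its usual partner. Nfkb2 (ENSMUSG00000025225.15, chr19:46304320-46312385, plus strand) measured 19.3 TPM from 1190 reads and 23.2 TPM from 1211 reads (21.2 ± 2.74). Relb (ENSMUSG00000002983.17, chr7:19606217-19629438, minus strand) measured 7.82 TPM from 302 reads and 7.53 TPM from 242 reads (7.68 ± 0.205). Relb was the lowest of the 10 genes in both libraries, and 34.5% of the coding genes were lower.

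The shares of the summed subunit level were close in the 2 libraries. The 5 subunit genes summed to 158 TPM in replicate 1 and 157 in replicate 2. Of this sum, Nfkb1 took 41.8% and 40.3%, Rela 25.5% and 25.4%, Rel 15.5% and 14.8%, Nfkb2 12.2% and 14.7%, and Relb 4.95% and 4.79%. Nfkb1 stood 1.64 and 1.59 times as high as Rela. Rela stood 5.15 and 5.30 times as high as Relb, its counterpart in the non-canonical branch.

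Of the subunit genes searched, Rel and Nfkb2 had kappaB matches, Nfkb2 at each of its 3 RefSeq starts. The Rel match began 92 bases before the start, and a match on the other strand overlapped it. For Nfkb2 start 1, matches began 39 bases (with an overlapping match on the other strand) and 11 bases before the start. For start 2 they began 236 bases before (on the other strand) and 10 bases after, and the latter also lay 225 bases before start 3. That shared match reads GGGACTTTCC, a sequence found in 51 of all 32851 promoters (0.155%). In the windows below, the overlapping matches on the other strand run on past the capitals. These windows of 30 bases are shown because they hold every match of the subunit promoters, read 5′ to 3′ on the strand of the gene, with the match in capitals (mm10, from RefSeq).
Rel, chr11:23771042-23771071, minus strand: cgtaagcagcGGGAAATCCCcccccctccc
Nfkb2, chr19:46304688-46304717, plus strand: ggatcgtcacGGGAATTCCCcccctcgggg
Nfkb2, chr19:46304716-46304745, plus strand: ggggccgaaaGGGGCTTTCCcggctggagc
Nfkb2, chr19:46305449-46305478, plus strand: tccgacggcaGGAATGTCCCcacaaaagcc
Nfkb2, chr19:46305695-46305724, plus strand: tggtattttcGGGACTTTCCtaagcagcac

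The classical inhibitors, which hold dimers in the cytoplasm, stood far apart in level. Nfkbia encodes I-kappaB alpha, the inhibitor that is destroyed and resynthesised fastest. Nfkbia (ENSMUSG00000021025.8, chr12:55489410-55492647, minus strand) measured 125 TPM from 3062 reads in replicate 1 and 111 TPM from 2573 reads in replicate 2 (118 ± 9.87), rank 600 among coding genes. Nfkbie encodes I-kappaB epsilon, a slower inhibitor that acts mainly on Rela and c-Rel dimers. Nfkbie (ENSMUSG00000023947.8, chr17:45555703-45563169, plus strand) measured 18.3 TPM from 919 reads and 16.1 TPM from 791 reads (17.2 ± 1.56). Nfkbia was thus 6.82 and 6.89 times as high as Nfkbie. Set against Rela, Nfkbia was 3.10 and 2.77 times as high. The 5 subunits together stood at 1.10 and 1.24 times these 2 classical inhibitors in the gene table. A further classical inhibitor, Nfkbib (17.7 and 20.6 TPM), is not in the set and was not counted. In the second table Nfkbia was higher (159 and 124 TPM), and this ratio was not computed there. Whether subunits exceed classical inhibitors was thus not settled.

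Both classical inhibitor genes had a kappaB match in front of the start site. That of Nfkbia began 29 bases before the start and reads GGGAATTTCC on the other strand, a sequence found in 29 of all promoters (0.0883%). That of Nfkbie began 106 bases before the start. The whole 250 bases before the Nfkbia start are given as the longer context of the best-known feedback inhibitor, 5′ to 3′ on the strand of the gene, and the Nfkbie match in its window of 30 bases, with the matches in capitals (mm10, from RefSeq).
Nfkbia, chr12:55492648-55492897, minus strand: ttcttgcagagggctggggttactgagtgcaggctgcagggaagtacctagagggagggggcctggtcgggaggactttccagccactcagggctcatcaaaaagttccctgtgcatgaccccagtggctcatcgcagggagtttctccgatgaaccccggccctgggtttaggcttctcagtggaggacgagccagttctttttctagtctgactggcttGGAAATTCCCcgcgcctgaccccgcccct
Nfkbie, chr17:45555584-45555613, plus strand: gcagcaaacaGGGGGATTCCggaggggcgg

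The nuclear I-kappaB genes held the highest member and the next to lowest. Nfkbiz encodes I-kappaB zeta, a nuclear protein that joins p50 on DNA and is needed for a set of secondary inflammatory genes. Nfkbiz (ENSMUSG00000035356.17, chr16:55811375-55838899, minus strand) measured 127 TPM from 8486 reads and 134 TPM from 8614 reads (130 ± 4.53), rank 544 among coding genes. Bcl3 encodes a nuclear I-kappaB protein that binds p50 and p52 homodimers. Bcl3 (ENSMUSG00000053175.17, chr7:19808462-19822770, minus strand) measured 12.5 TPM from 329 reads and 10.03 TPM from 252 reads (11.3 ± 1.75). Nfkbiz stood 10.2 and 13.3 times as high as Bcl3. Tnfaip3 encodes A20, an enzyme that edits ubiquitin chains on signalling proteins upstream of the I-kappaB kinases. Tnfaip3 (ENSMUSG00000019850.11, chr10:19000910-19015657, minus strand) measured 102 TPM from 5676 reads in replicate 1 and 130 TPM from 6766 reads in replicate 2 (116 ± 19.8), the widest spread of the 10 genes in TPM.

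Bcl3 had a match beginning 2 bases after its start, and Tnfaip3 had matches beginning 125 and 12 bases before its first start and 0 in the promoter of its other start. The Bcl3 match and the Tnfaip3 match at 12 bases read as the consensus on the other strand. The windows below hold these matches in capitals, 5′ to 3′ on the strand of the gene (mm10, from RefSeq).
Bcl3, chr7:19822734-19822763, minus strand: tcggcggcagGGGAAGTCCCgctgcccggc
Tnfaip3, chr10:19015516-19015545, minus strand: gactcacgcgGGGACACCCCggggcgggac
Tnfaip3, chr10:19015403-19015432, minus strand: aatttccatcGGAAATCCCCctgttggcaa

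**Figure D2:**
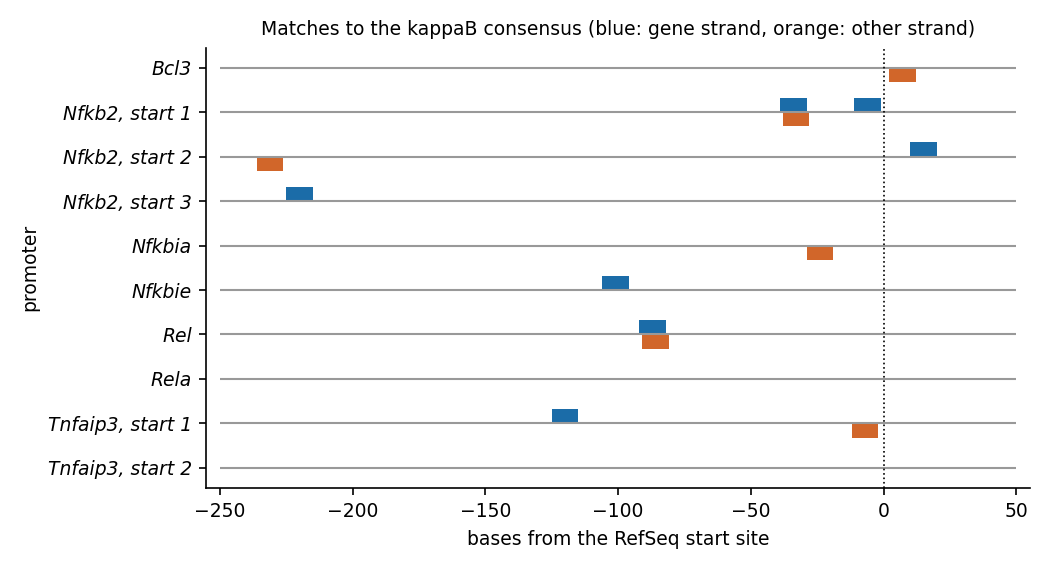
Matches to the kappaB consensus in the 10 promoters used, by distance in bases from the RefSeq start site (dotted line), with matches on the strand of the gene in blue and those on the other strand in orange. Matches occur in 8 of the 10 promoters; Rela and the second start of Tnfaip3 have 0.

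The comparison of the 2 libraries asked how far each gene differed between them, since there was no other condition to compare. It used an exact two-sided binomial test on the reads of each gene, with reads of annotated genes other than ribosomal RNA genes as offsets. It compares these libraries, and it holds counting error only. Calls required a ratio of 2-fold or more as well as an adjusted p no higher than 0.05. Of 12434 genes tested, 280 (2.25%) were called, 1.57% of the genes tested as higher and 0.684% as lower in replicate 2. Of the 10 members, 0 were called by that test in either direction. The log2 ratios, replicate 2 over replicate 1, ran from -0.35 for Bcl3 to 0.29 for Tnfaip3. The members' median ratio was -0.07 on the log2 scale and their median size without sign 0.13, where all tested genes had medians of 0.00 and 0.14.

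With no limit on fold, 5 members passed the binomial test at an adjusted p of at most 0.05, where 24.7% of all tested genes did. Such a test passes smaller ratios in genes with more reads. The shares of all tested genes, here and for the lists below, were not matched for reads. Tnfaip3 was higher in replicate 2 by 1.22-fold (log2 0.29, 95% interval 0.24 to 0.34, exact binomial adjusted p = 3.99e-27). Nfkbiz was higher by 1.04-fold (log2 0.06, interval 0.01 to 0.10, exact binomial adjusted p = 0.0374). The higher direction held 11.8% of all tested genes. On the lower side, which held 12.9% of all tested genes, Nfkbia was at 0.862 times its replicate 1 level (log2 -0.21, interval -0.29 to -0.14, exact binomial adjusted p = 4.97e-07). Nfkbie was at 0.883 times (log2 -0.18, exact binomial adjusted p = 0.0434) and Bcl3 at 0.786 times (log2 -0.35, interval -0.59 to -0.11, exact binomial adjusted p = 0.0211). Of these 5, Nfkbiz did not pass with DESeq2 size factors (exact binomial adjusted p = 0.113) or in the second table (0.071), and Nfkbie did not pass with TMM offsets (0.054) or in the second table (0.323). Tnfaip3 and Nfkbia, the members next in level to Nfkbiz, lay on opposite sides of 1.

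With these counts and offsets, 0 of the 5 subunit genes passed at any fold, although Relb passed in the second table (exact binomial adjusted p = 0.0134) and Rel with DESeq2 size factors (exact binomial adjusted p = 0.0279). Rel had a log2 ratio of -0.09 (exact binomial adjusted p = 0.0593), Relb -0.28 (interval -0.53 to -0.03, exact binomial adjusted p = 0.0808), Rela -0.06 (0.446), Nfkb1 -0.05 (0.349) and Nfkb2 0.06 (0.505). At an unadjusted binomial p under 0.05 there were 7 members, where 34.5% of all tested genes were, again not matched for reads. A negative binomial exact test in edgeR called 0 of the 10 genes at any fold (1.46% of all tested). Of the 10 genes, 0 had an unadjusted p under 0.05 in it (4.80% of all tested). It takes a spread of 12.2% between the libraries into account, which was estimated from the same 2 libraries treated as alike. The differences tested thus set their own yardstick, so ratios of this size could hardly pass. Marker lists differed between the libraries too. B cell markers were below 0 on the log2 scale in 8 of 8 genes tested (median -1.07), and monocyte and macrophage markers in 6 of 8 (median -0.13). Erythroid markers were above 0 in 7 of 8 (median 1.69), of which 5 were called at 2-fold, whereas Hbb-bs had a log2 ratio of -0.37 and the summed level was 957 and 970 TPM. Of the endothelium and stroma markers tested, Col1a1 (1.94) and Col1a2 (1.84) were called higher. Neutrophil markers were split, 4 above and 6 below, with Mpo at 0.36 and Elane at 0.41 against Csf3r at -0.27 and Retnlg at -0.24, a size like that of the members' own ratios. The part of these cells in the ratios was not tested.

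**Figure D3:**
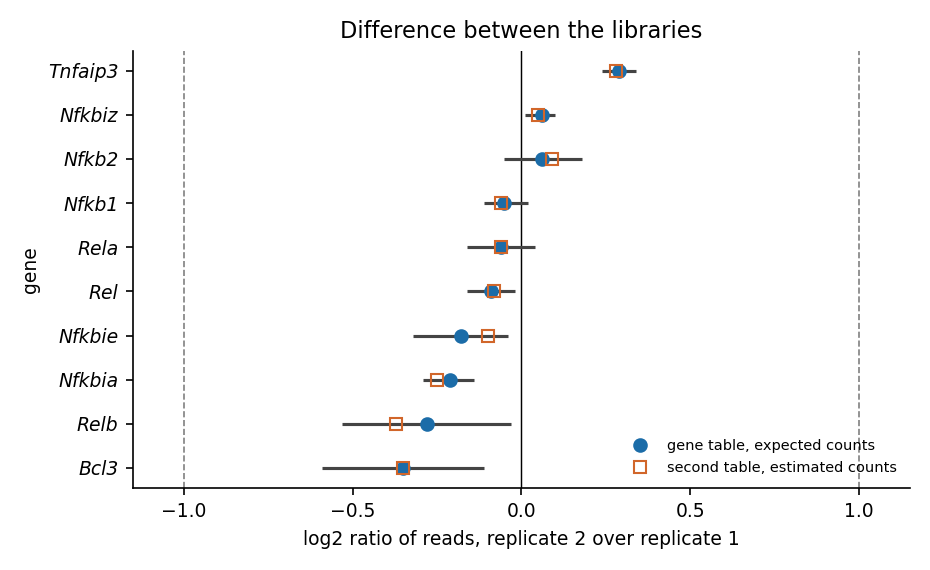
Log2 ratio of reads, replicate 2 over replicate 1, for each gene; filled points with 95% exact intervals (counting error only) are from the gene table and squares from the second transcript table, and dashed lines mark 2-fold. All 10 genes lie well inside the dashed lines, with Tnfaip3 highest at 0.29 and Bcl3 lowest at -0.35.

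For Nfkb2 and Relb the level and the reads gave different ratios. The reads of Nfkb2 differed by 0.06 on the log2 scale, and its TPM by 0.26. The mean effective length of its transcripts, by which the deposited TPM is divided, was 3260 bases in replicate 1 and 2862 in replicate 2. Between the libraries the short transcript Nfkb2-203, of 384 bases, went from 1.28 to 17.8 assigned reads, which made 1.23% and 14.8% of the gene's TPM. The second table gave Nfkb2-203 a level of 0 in both libraries and Nfkb2 25.7 and 26.0 TPM. For Relb the log2 ratio was -0.28 by reads and -0.05 by TPM, with effective lengths of 2041 and 1759 bases. Relb-204, of 784 bases, went from 2.37 to 27.1 assigned reads, which made 2.34% and 28.8% of the TPM of Relb. The close TPM of Relb in the 2 libraries thus rested in part on this transcript. The second table gave Relb 7.25 and 6.41 TPM. Reads of Nfkb2 could also come from the overlapping gene AC114539.1 on the opposite strand, which had 145 and 101 reads of its own, since the sources used here do not say whether counting used strand. The same holds for Bcl3, with Gm16174 on the opposite strand at 21 and 14 reads. Nfkb1 overlaps Gm43430 on the same strand (185 and 168 reads), where counting by strand could not part the reads.

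Transcripts annotated as retained introns, which keep an intron and have no annotated coding sequence, were assigned a large share of the reads of some members. For Nfkbie the share was 61.9% in replicate 1 (95% exact interval 58.7 to 65.1) and 68.3% in replicate 2 (64.9 to 71.5), all on Nfkbie-202. This mean share was above that of 97.7% of the 6614 genes with such a transcript and enough reads, whose median was 10.7%. The second table gave 63.4% in both libraries. The coding transcript Nfkbie-201, which encodes a protein of 364 residues, held 7.34 and 5.38 TPM, while Nfkbie-202 held 10.4 and 10.2 TPM. Nfkbie was the only member whose leading transcript was non-coding in both tables.

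Nfkb1, Relb and Tnfaip3 came next in retained-intron share. For Nfkb1 it was 34.4% (32.9 to 35.9) and 40.9% (39.3 to 42.5), and these intervals of counting error did not overlap. In the second table the Nfkb1 share was 31.8% and 35.7%. For Relb it was 41.4% and 34.3%, and 53.0% and 55.1% in the second table. For Tnfaip3 it was 29.4% and 28.1%, and 35.9% and 33.5% in the second table. These 3 genes stood above 88.9%, 89.0% and 82.1% of the genes compared, in the order Nfkb1, Relb and Tnfaip3. Nfkb2 had 18.4% and 13.5%, Nfkbia 9.57% and 11.2%, Rela 5.63% and 4.98%, and Bcl3 6.69% and 1.98%. Nfkbia, Rela and Bcl3 thus lay below the median of the genes compared in the aligned table. In the second table Nfkbia, at 16.5% and 14.4%, was above the median of 11.5%, and Rela and Bcl3 were below it. Rel and Nfkbiz had 0 annotated transcripts of that class. Retained-intron and coding transcripts share exons, so these shares are estimates, and the intervals hold counting error only. In total RNA, reads of unspliced precursor RNA could also be assigned to retained-intron transcripts, and their part in the shares was not tested.

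**Figure D4:**
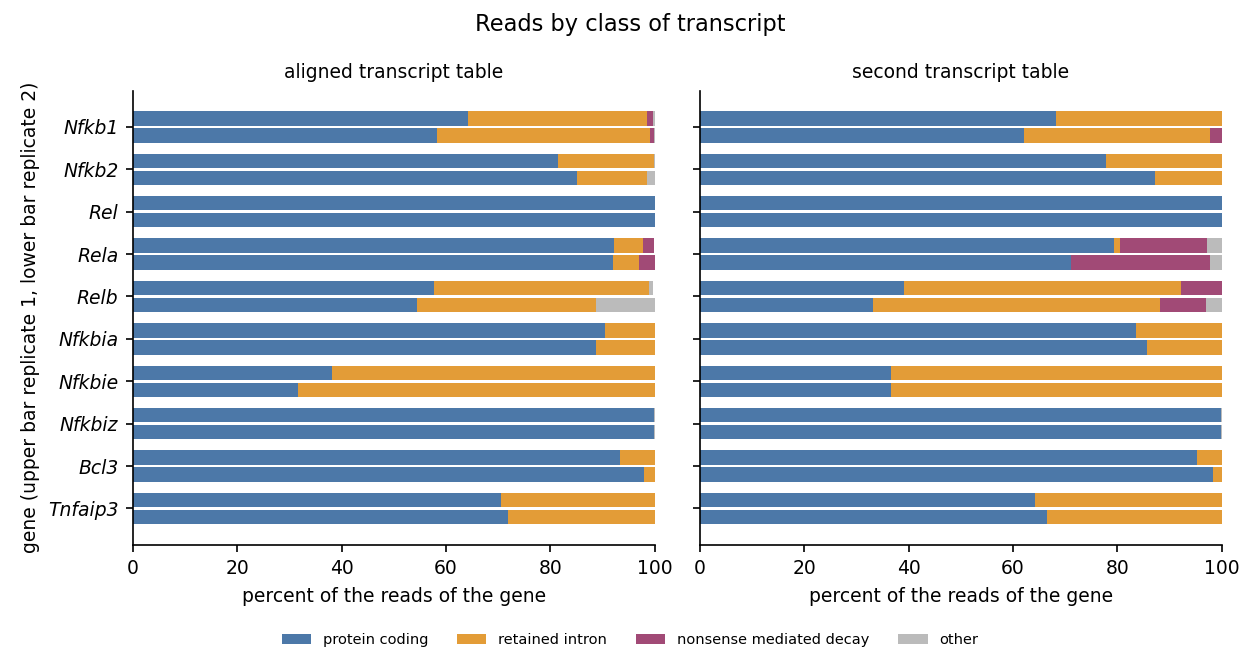
Percent of the reads of each gene by class of annotated transcript, with replicate 1 as the upper bar and replicate 2 as the lower bar of each pair; the left panel is the aligned transcript table and the right panel the second transcript table. The retained-intron share of Nfkbie exceeds 60% in both libraries and both tables, and Rel and Nfkbiz have none.

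The leading transcript, by the mean of the libraries, was the same in both tables for 7 of the 10 genes. Rel had a single annotated transcript, of 7466 bases, which encodes 588 residues. For Nfkb1 it was Nfkb1-201 (971 residues), with 42.9% and 45.6% of the gene's TPM, and 31.2% and 33.1% in the second table. Rela-201 (549 residues) held 76% and 73.9%, and 60.8% and 55% in the second table. Transcripts annotated for nonsense-mediated decay, a pathway that destroys messages with early stops, held 2.18% and 2.91% of Rela reads, but 16.8% and 26.7% in the second table. Nfkbia-201 (314 residues) held 79.4% and 76.4%, and Bcl3-201 (448 residues) 68.8% and 66.4%. These leading transcripts all encoded proteins.

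For Nfkbiz the tables disagreed on the minor transcript and not on the leader. Nfkbiz-204 (728 residues) held 99.2% and 98.5% of the gene's TPM, and 70.5% and 67.6% in the second table. The remainder in the second table was mostly Nfkbiz-202, which encodes a shorter protein of 629 residues. Nfkbiz-202 had 41.3 and 44.3 TPM there, but 0.83 and 0 TPM in the aligned table.

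For Nfkb2, Relb and Tnfaip3 the leader by the mean of the libraries depended on the table. Nfkb2-206 (878 residues) led with 45.4% and 38.6%. In the second table it held 29.8% and 29.0%, still ahead of Nfkb2-202 (899 residues) at 25.7% in replicate 1 but behind it at 34.8% in replicate 2, so that Nfkb2-202 led in the mean. Relb-202 (558 residues) led with 35.0% and 35.9%. Its deposited bounds were wide, 3.8e-05 to 2.83 TPM in replicate 1 (value 2.73) and 3.61e-06 to 2.34 TPM in replicate 2 (value 2.70). Its lead was thus uncertain within the aligned table too. The second table gave Relb-202 0.496% and 0.00139% and had the retained-intron transcript Relb-208 in front, at 27.4% and 33.7%. Tnfaip3-202 and Tnfaip3-201 both encode 775 residues and start at different sites, the former at the RefSeq start without a kappaB match and the latter at the start with 2. The aligned table placed Tnfaip3-202 first at 26.8 and 40.9 TPM, with Tnfaip3-201 at 20.98 and 19.1 TPM. The second table placed Tnfaip3-201 first at 29.5 and 41.7 TPM, with Tnfaip3-202 at 14.8 and 11.5 TPM. The short Tnfaip3-204, of 456 bases, held 20.4 and 29.3 TPM from 138 and 191 reads in the aligned table, and 0 in the second. In each table the leader and most of the other transcripts with reads had more TPM in replicate 2, and the exception was Tnfaip3-201 in the aligned table and Tnfaip3-202 in the second.

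Of the other I-kappaB family genes, Nfkbid and Nfkbib were expressed at levels like those of the middle members. Nfkbid, the nuclear I-kappaB NS, measured 35.8 and 23.8 TPM (29.8 ± 8.47), and Nfkbib, the classical I-kappaB beta, 17.7 and 20.6 TPM. Ankrd42 stood at 0.17 and 0.18 TPM. Nfkbid was lower in replicate 2 (log2 -0.54, exact binomial adjusted p = 8.67e-15, edgeR negative binomial adjusted p = 0.9). It encodes a nuclear I-kappaB protein, as does Nfkbiz, which was higher in replicate 2.

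Genes that pass the signal to the I-kappaB proteins were nearly all expressed. All 15 kinase genes reached 1 TPM in both libraries, with medians of 23.1 and 24.1 TPM. The highest were Map3k3, a kinase upstream of the I-kappaB kinases, at 91.6 and 79.6 TPM, Ikbkb, the catalytic kinase subunit of the classical branch, at 70.7 and 68.4 TPM, and Irak2, of the Toll-like receptor branch, at 53.9 and 42.9 TPM. All 22 adaptor and ubiquitin ligase genes were expressed too, with medians of 18.9 and 19.2 TPM. They were led by Card9 (91.1 and 90.0 TPM), an adaptor of fungal C-type lectin receptors, Birc3 (58.0 and 51.9 TPM), a ubiquitin ligase that restrains the non-canonical branch, and Sharpin (56.8 and 46.5 TPM), of the linear ubiquitin complex. Of these genes, 0 were called at 2-fold in either list. At any fold, by the binomial test, 1 of 15 kinase genes (Ikbke, log2 0.23) was higher and 6 were lower in replicate 2, where 11.8% and 12.9% of all tested genes were. Of the 22 adaptor genes, 1 (Btrc, which recognises marked I-kappaB, log2 0.37) was higher and 6 were lower, against the same shares of all tested genes. Median log2 ratios were -0.11 for the kinases and -0.05 for the adaptors.

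Genes that limit the signal beside Tnfaip3 had 11 of 12 members at a TPM of at least 1. Zfp36, which encodes the RNA-decay protein tristetraprolin, was the highest at 538 and 639 TPM. Tax1bp1, a partner of A20, measured 91.3 and 87.3 TPM, and Zc3h12a, which encodes the ribonuclease regnase-1, 65.8 and 56.4 TPM. Of these 12 genes 0 were called at 2-fold, and at any fold Zfp36 was higher and Rnf11, Zc3h12a and Tax1bp1 were lower in replicate 2 by the binomial test (median log2 -0.10 over the list). Of all tested genes, 2.25% were called at 2-fold, and at any fold 11.8% were higher and 12.9% lower. Rnf11, a further A20 partner, had a log2 ratio of -0.22. In this list 4 of the 8 genes with a promoter had a kappaB match (Cyld, Tnip1, Tnip3 and Tax1bp1). Matches were found in 1 of 12 kinase genes (Map3k7), 2 of 17 adaptor genes (Traf3 and Bcl10), 1 of 3 other I-kappaB family genes (Nfkbid) and 12 of 25 known target genes.

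Known target genes spanned the widest range of levels. Of 34, 26 reached 1 TPM in both libraries, and Il12b, Nos2 and Csf3 had no read in either. A count of 0 allows up to 3 reads in a library. Junb, an AP-1 subunit, led with 425 and 431 TPM. It was followed by Cxcl2, a chemokine that attracts neutrophils, at 196 and 121 TPM, and by the cytokine Il1b at 194 and 122 TPM. Of the 26 genes tested 0 were called at 2-fold, 20 had ratios below 0 on the log2 scale and 6 above, and the median was -0.17, where 49.9% of all tested genes were above 0. At any fold, 11 were lower and 1 (Ccl2, log2 0.34) was higher by the binomial test, where 12.9% and 11.8% of all tested genes were. Ripk2 is in this list and in that of the kinases. Ptgs2, the inducible prostaglandin synthase, was the single gene of the 5 lists below an edgeR negative binomial adjusted p of 0.05 (adjusted p = 0.0252). It measured 25.7 and 13.2 TPM (log2 -0.92). The direction of Tnfaip3, itself a target gene by common knowledge, was opposite to the majority of this list, and that of Nfkbia was the same.

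**Figure D5:**
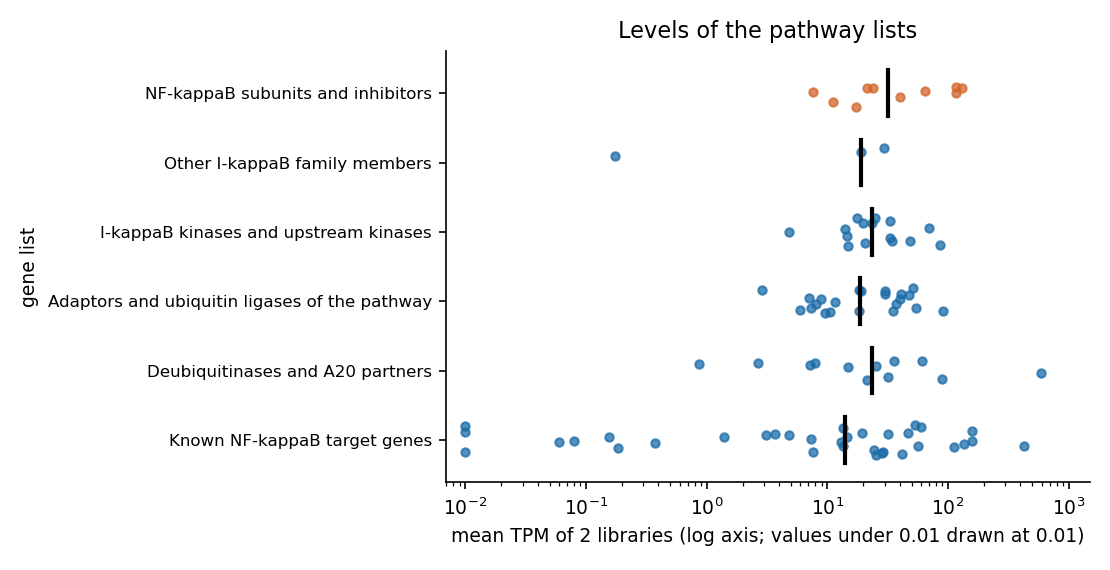
Mean TPM of the 2 libraries on a log axis for each gene of the set (orange) and of the 5 pathway lists (blue), with the median of each list as a vertical bar; values under 0.01 are drawn at 0.01. The set's median is above those of the other lists, and the known target genes spread from no reads to the level of Junb.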

How the data were processed

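Neutrophil total RNA was measured in 2 libraries of 1 group. Per the file headers, the deposited gene and transcript tables give expected counts, which need not be whole, TPM, a percent of the gene's TPM per transcript, and interval bounds of TPM (used only in a plot). A second deposited transcript table gives estimated counts and TPM from the authors' processing without the alignments. Build mm10 and annotation M21 come from file lists deposited by the authors; the programs behind both are not given in these sources. The members and lists were chosen with earlier results of these data known.

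Counts of all 10 members were whole within 0.01. Rounded counts of the 12434 genes whose counts summed to 50 or more were compared by an exact two-sided conditional binomial test with Benjamini-Hochberg adjustment; ratios had 0.5 added to each count. Offsets were 18060581 and 17609100 reads. The alternatives were TMM and a negative binomial exact test in edgeR 4.0.16, DESeq2 1.42.0 size factors, other count filters and the second table. Tested on simulated data for replicate 2 over replicate 1 (55180 genes, counting error only), the binomial test recovered 200 of 200 genes changed 3-fold and called 1 of 12232 unchanged genes. The changed genes were drawn only from those with summed counts of at least 200, so recovery at lower counts was not tested. Intervals are exact (Clopper-Pearson) at 95% and cover counting error only. Levels between genes were compared in TPM alone.

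Named were all members; from each pathway list the 3 highest by mean TPM, up to 5 genes with no reads and every called gene; and from each marker list the 2 highest. Other genes of these lists (among them Ikbke, Btrc, Rnf11, Ccl2, Ptgs2, Ankrd42 and those with kappaB matches) were named after their values were seen. Of 163 list symbols, 163 matched a gene. R 4.3.3 and Python 3.11.15 with scipy 1.17.1, numpy 2.4.6, pandas 2.3.3 and matplotlib 3.10.9 were used.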

Additional observations from a re-analysis of the deposited data

How the results depend on the processing

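The number of genes called between the libraries was 280, and it was 566 when counts had to sum to 10 or more, 560 with no filter on low counts and 173 by the negative binomial exact test. With TMM offsets, DESeq2 size factors or the second table it was 281, 279 and 310. Under the 4 settings tried for each of the 10 genes, 40 of 40 log2 ratios kept their sign and were not called. At any fold, 3 members crossed an adjusted p of 0.05 in the second table: Relb passed there (exact binomial adjusted p = 0.0134), while Nfkbie (0.323) and Nfkbiz (0.071) did not. With DESeq2 size factors Rel passed (exact binomial adjusted p = 0.0279) and Nfkbiz did not (0.113), and with TMM offsets Nfkbie did not (0.054). Mean TPM in the second table was 0.786 to 1.22 times that of the gene table, and scaling to protein-coding genes multiplied all 10 levels by 2.14. The share of the leading transcript moved beyond the spread between the libraries for 8 of 10 genes in the second table. No paired analysis was possible because there was 1 group.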

Other observations

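Known NF-kappaB target genes with a kappaB match in a promoter and those without one overlapped widely in level. The 12 with a match had median levels of 41.0 TPM in replicate 1 and 31.1 in replicate 2, and means from 0.06 to 159 TPM. The 13 without a match had medians of 25.7 and 13.2 TPM, and means from 0 to 428 TPM. Among the genes with a match, Cxcl1, a chemokine gene next to Cxcl2 in its cluster and named here after its values were seen, measured 0 and 0.12 TPM, while Cxcl2 measured 196 and 121 TPM.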
